A study of Mus musculus with 8 samples.

Results

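Mmp8, Mmp9, Retnlg, Timp2, Scrg1 and Adpgk, 6 of the 32285 genes in the deposited table, were followed through neutrophil stages and tissues of tumor-bearing mice. They were taken by name and compared in 3 classes of cells defined by other genes. Immature neutrophils were cells in which Camp, Ngp and Ltf together made up at least 1% of the transcript counts (unique molecular identifiers, UMIs). Mature neutrophils had under 1% of these and at least 3% from S100a8 and S100a9, or at least 1% in the tumor. Tumor macrophages were tumor cells with at least 3 UMIs of C1qa, C1qb and C1qc. All 6 genes were found once each in the table and passed the filter on low counts.

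Female C57BL6/J mice carried a subcutaneous flank tumor of MOPC cells, a mouse oropharyngeal carcinoma line. Blood, bone marrow, spleen and tumor each gave 1 RNA library, in which cells of several mice were told apart by hashtag antibodies. All mice of all groups carried the tumor, so there is no tumor-free control. The labels name wild-type mice and mice with an unnamed gene knockout in every tissue, but tie no hashtag to a genotype, so each group mixes the genotypes in unknown proportion. Living cells had been sorted as Gr1-positive without markers of lymphocytes, mast cells and red cells, or as Gr1-negative and cKit-positive. A hashtag within a tissue was taken as 1 mouse, which is an assumption.

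Neutrophils fill their granules in sequence while they mature. Specific granule proteins such as lactoferrin and the cathelicidin Camp are made before gelatinase granule proteins, which are made close to release from the marrow. Mmp8 is neutrophil collagenase, which cleaves fibrillar collagens, and Mmp9 is gelatinase B, which cleaves denatured collagen and basement membrane collagen. Timp2 is a tissue inhibitor that binds metalloproteinases. Retnlg encodes a secreted resistin-like protein of the neutrophil lineage. Adpgk encodes a glucokinase that uses ADP in place of ATP, and Scrg1 was named as a gene responsive to scrapie infection and encodes a small secreted protein. RNA levels report neither stored nor active protein.

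Mmp8 (ENSMUSG00000005800) lies on chromosome 9 at 7558429-7568486 and Adpgk (ENSMUSG00000025236) on the same chromosome at 59291572-59316200. Mmp9 (ENSMUSG00000017737) lies on chromosome 2 at 164940326-164955850, Retnlg (ENSMUSG00000022651) on chromosome 16 at 48872608-48874498, Timp2 (ENSMUSG00000017466) on chromosome 11 at 118301061-118355411 and Scrg1 (ENSMUSG00000031610) on chromosome 8 at 57455882-57479360. These are RefSeq positions of GRCm38.p6, the assembly that mm10 names. All 6 are protein-coding.

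RefSeq promoter windows were matched for 4 of the 6 genes. All 4 are shown because Mmp8, Retnlg and Timp2 rose together as marrow neutrophils matured and Adpgk fell. Each runs from 250 bases before the annotated start to 50 after it, 5′ to 3′ on the gene's strand, on GRCm38.p6. Capitals mark matches, on either strand, to TTGCNNAA, a form of the C/EBP site, and to GAGGAA, a form of the site of ETS factors such as PU.1. Both factor families are known regulators of granulocyte genes.
Mmp8, chr9:7558179-7558478, plus strand: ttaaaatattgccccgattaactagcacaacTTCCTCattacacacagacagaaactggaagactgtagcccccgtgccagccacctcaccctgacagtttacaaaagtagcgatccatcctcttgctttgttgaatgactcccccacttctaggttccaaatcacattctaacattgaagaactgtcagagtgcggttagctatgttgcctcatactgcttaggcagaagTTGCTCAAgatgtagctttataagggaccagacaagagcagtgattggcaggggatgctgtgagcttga
Retnlg, chr16:48872358-48872657, plus strand: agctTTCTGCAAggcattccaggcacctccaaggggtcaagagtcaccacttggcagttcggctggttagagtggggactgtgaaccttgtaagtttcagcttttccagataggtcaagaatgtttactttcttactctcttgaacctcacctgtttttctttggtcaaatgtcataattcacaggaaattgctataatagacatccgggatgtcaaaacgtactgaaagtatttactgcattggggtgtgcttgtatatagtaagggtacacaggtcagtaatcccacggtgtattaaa
Adpgk, chr9:59291322-59291621, plus strand: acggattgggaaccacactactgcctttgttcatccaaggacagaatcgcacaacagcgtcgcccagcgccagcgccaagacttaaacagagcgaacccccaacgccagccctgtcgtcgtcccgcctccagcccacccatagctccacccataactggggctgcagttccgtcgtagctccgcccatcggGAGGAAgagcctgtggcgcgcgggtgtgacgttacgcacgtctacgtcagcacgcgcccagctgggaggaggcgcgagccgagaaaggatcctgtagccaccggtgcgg
Timp2, chr11:118355362-118355661, minus strand: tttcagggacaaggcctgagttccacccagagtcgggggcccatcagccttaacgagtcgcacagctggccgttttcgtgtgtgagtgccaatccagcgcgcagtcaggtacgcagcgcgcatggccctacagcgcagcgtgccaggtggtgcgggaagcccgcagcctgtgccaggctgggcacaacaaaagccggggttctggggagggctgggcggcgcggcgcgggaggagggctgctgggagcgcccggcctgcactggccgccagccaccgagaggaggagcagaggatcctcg
The Mmp8 window held 1 match to each motif, the Retnlg window 1 to TTGCNNAA and 0 to GAGGAA, the Adpgk window 0 and 1, and the Timp2 window 0 of either. No 2 matches overlapped. Of all 32851 windows of this length, 10.8% held TTGCNNAA and 28.3% held GAGGAA, so single matches are common. A match describes letters only and is neither a binding site nor a cause. The G+C content was 46% for Mmp8, 42.7% for Retnlg, 63.7% for Adpgk and 68.7% for Timp2.

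The libraries held 7763 blood, 5682 marrow, 6105 spleen and 462 tumor cells, with median UMIs per cell of 3132, 7999, 3461 and 8664. A single hashtag was assigned to 89.6% to 91.9% of cells outside the tumor and to 47% of tumor cells, where 42.2% carried several. In all, 62 cells shared a barcode with a cell of another library. The rules found 2072 immature neutrophils in marrow, 244 in spleen and 5 in blood, and 1847, 3217, 6018 and 127 mature neutrophils in marrow, spleen, blood and tumor. They found 90 tumor macrophages, and 53 further tumor cells met both tumor rules and were left out. UMIs were summed per hashtag and class and scaled to counts per 1000000 UMIs (CPM). The sums numbered 8 for each marrow, blood and spleen class except immature spleen (5), and 4 for each tumor class. They held 344997 to 5081816 UMIs outside the tumor and 32148 to 178297 in it.

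S100a8 and S100a9 belong to the class rule, so the neutrophil label was read from Csf3r, Cxcr2 and Ly6g, the first 2 of which are receptor genes for G-CSF and neutrophil chemokines. Csf3r was found in 97.6% of mature marrow, 99.9% of blood, 99.8% of spleen and 96.1% of tumor neutrophils, against 61.1% of tumor macrophages. Cxcr2 was found in 92.9% of tumor neutrophils and 51.1% of tumor macrophages. Ly6g was found in 55.4%, 12.5%, 11.7% and 8.66% of mature neutrophils of marrow, blood, spleen and tumor. All 5 monocyte markers were detected in the tumor neutrophils, at 404 to 2313 CPM in sum per hashtag. Their sums were 735 to 2423 in the macrophages and 225 to 484 in mature blood neutrophils. The 6 macrophage markers, of which C1qa, C1qb and C1qc set the macrophage rule, summed to 549 to 1835 CPM per hashtag in tumor neutrophils. Over all cells these 6 summed to 834 CPM in tumor and 455 in mature blood neutrophils, and in blood to 156 to 415 per single hashtag. Mrc1 made up 376 CPM of the tumor sum and 0.451 of the blood sum. T or NK markers summed to 0 to 1729 and dendritic markers to 347 to 3287 CPM in the tumor neutrophil sums. Their part in the tumor values was not tested. The 7 red cell markers summed to 132 to 13841 CPM per hashtag in mature blood neutrophils, and their part in the blood values was not tested. In immature marrow neutrophils Csf3r, Cxcr2 and Ly6g were found in 80.5%, 71% and 94.5% of cells. The promyelocyte genes Elane, Mpo, Prtn3 and Ctsg summed to 58.7 to 1094 CPM per hashtag there. Their sums were 34.3 to 4039 in immature spleen and 93.1 to 5167 in mature marrow neutrophils, over 8 hashtags each. Dendritic markers summed to 16.2 to 1222 in immature spleen neutrophils. The part of such cells was not tested.

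In marrow, 5 of the 6 genes were higher in mature than in immature neutrophils and Adpgk was lower (n = 8 sums each). Retnlg rose most, by a log2 fold change of 2.31 ± 0.12 (SE), which is 4.96-fold. Timp2 rose 3.5-fold, Scrg1 2.41-fold, Mmp9 1.88-fold and Mmp8 1.8-fold, and Adpgk was 2.64-fold lower. Of all 10301 genes tested, 29.9% were called higher and 26.6% lower in this comparison, so a call is common here. A call is an adjusted p under 0.05 in edgeR's quasi-likelihood test, with adjustment over all tested genes. Levels are shares of all UMIs and not amounts per cell: the median was 3774 UMIs in mature and 9781.5 in immature marrow cells. In UMIs, Mmp8 had 16313 in 1689 mature and 24374 in 1731 immature cells, and Mmp9 had 11191 and 16840. Both were thus higher as a share of UMIs but lower in UMIs per cell, as was Scrg1, with 3989 and 4434. Retnlg had 260335 and 145847 and Timp2 1994 and 1522, higher by both measures.

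Retnlg lay at 6196 to 9030 CPM in the immature sums, with a median of 7888, and at 34338 to 44380 with a median of 37681 in the mature ones. The groups did not overlap (edgeR adjusted p = 1.64e-21). Timp2 lay at 64.2 to 112 CPM (median 79) in immature and 247 to 324 (median 291) in mature sums, again without overlap (log2 1.81 ± 0.12, edgeR adjusted p = 1.45e-18). The inhibitor gene thus took a larger relative step than the gelatinase gene, as UMIs within 1 library show. Timp2 UMIs per 100 Mmp9 UMIs were 6.93 to 12.7 in the immature and 14.2 to 19.3 in the mature sums, ranges that did not overlap. The untested ratio compares counts of 2 genes in the same cells and is no ratio of molecules.

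Scrg1 ran from 190 to 281 CPM in immature and from 504 to 636 in mature sums (log2 1.27 ± 0.10, edgeR adjusted p = 5.53e-15). Mmp9 ran from 721 to 1131 CPM (median 878) and from 1540 to 2098 (median 1596), with log2 0.91 ± 0.15 and edgeR adjusted p = 1e-06. Mmp8 ran from 1048 to 1543 CPM (median 1317) and from 1935 to 3020 (median 2306), with log2 0.85 ± 0.15 and edgeR adjusted p = 3.87e-06. Every mature sum of these 3 genes lay above every immature one. Adpgk, at 530 to 684 CPM in immature sums, was at 216 to 292 in mature ones and fell by 1.40 ± 0.12 on the log2 scale (edgeR adjusted p = 7.72e-14). With every cell thinned to 1000 UMIs, which weights all cells alike, the Mmp8 difference was 0.27 and not called (edgeR adjusted p = 0.0636).

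**Figure D1:**
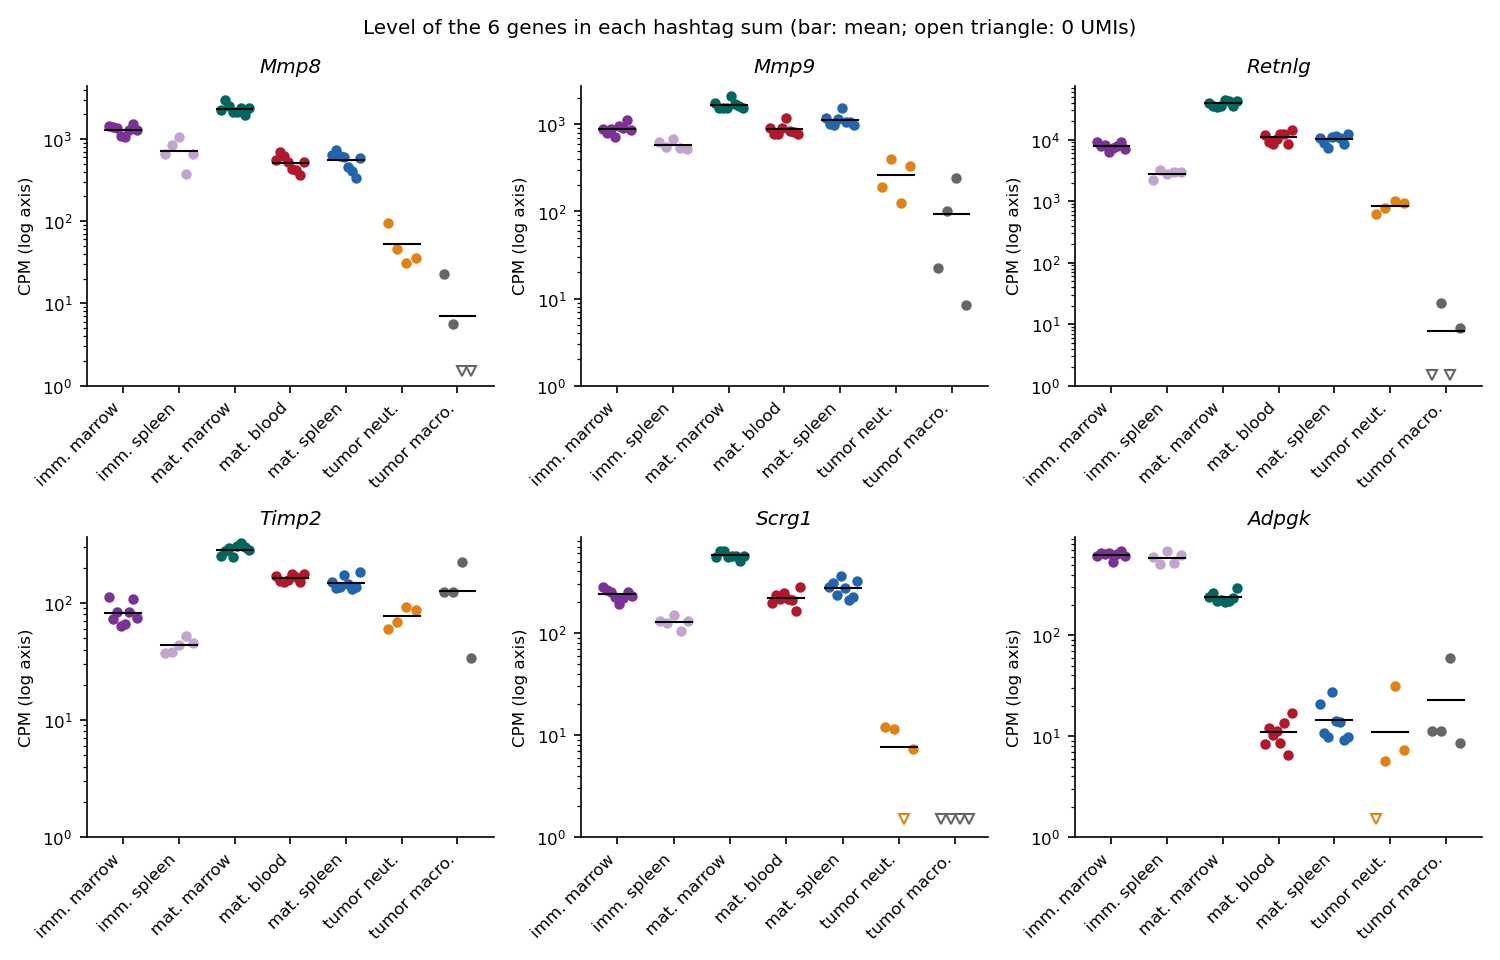
CPM (log axis) of each gene in every hashtag sum of the 7 groups; points are sums, bars are means and open triangles are sums with 0 UMIs. Mature marrow neutrophils hold the highest sums of the first 5 genes, and the Adpgk sums are at 216 or more in marrow and 27.3 or less in mature blood and spleen cells.

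The step between 2 classes hides when each gene peaks. Marrow neutrophils were therefore set out by their share of Camp, Ngp and Ltf UMIs, from 10% and over to under 0.01%, as a description without a test. The 10% and over bin held 573 cells and the 3 to 10% bin 1156. The bins of 1 to 3%, 0.1 to 1%, 0.01 to 0.1% and under 0.01% held 343, 792, 865 and 190 cells. Means are over 3 to 8 hashtags with at least 20 cells in a bin. They are shares of UMIs, and median UMIs per cell were 11889 in the first bin and 2725 in the last.

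Mmp8 had its highest mean, 3415 ± 363 CPM (SD, n = 6), in the 1 to 3% bin. It was at 295 ± 70.4 (n = 7) at 10% and over, 1609 ± 254 (n = 8) at 3 to 10%, 3075 ± 325 (n = 8) at 0.1 to 1%, 1750 ± 328 (n = 8) at 0.01 to 0.1% and 1312 ± 229 (n = 3) under 0.01%. The Mmp8 RNA level was thus highest in a middle bin of the marrow, and the 2 highest bins differed by less than the SD of the higher. Mmp9 had its highest mean in the same bin: it was at 339 ± 51.8, 1081 ± 244, 2058 ± 409, 1911 ± 288, 1469 ± 181 and 1271 ± 232 CPM from the first bin to the last. Its 2 highest bins also differed by less than the SD of the higher. Both proteases were lower in the marrow cells with the least specific granule RNA than in the 1 to 3% bin.

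Retnlg had its highest mean 1 bin later, at 44840 ± 3987 CPM (n = 8) in the 0.1 to 1% bin. Its means on either side were 33873 ± 5824 (n = 6) and 34521 ± 4159 (n = 8), and it started from 656 ± 140 (n = 7). Scrg1 was flat from the 1 to 3% bin on, at 506 to 600 CPM, after 101 and 277. Timp2 was at 28.7 ± 6.57 at 10% and over, 224 ± 44.3 in the 1 to 3% bin and 302 ± 40.9 in the 0.01 to 0.1% bin. The highest means of the 2 proteases came before those of Retnlg and Timp2 in this order of bins, but not in every hashtag. The 1 to 3% bin lacks hashtags 1 and 4. Mmp8 was higher in the 0.1 to 1% bin in hashtags 2 and 3, at 3803 against 3496 and 3153 against 2865 CPM. Mmp9 was higher there in hashtags 3 and 6, at 1802 against 1541 and 1947 against 1916 CPM. In hashtags 5, 7 and 8 both were higher in the 1 to 3% bin, as were Mmp8 in hashtag 6 and Mmp9 in hashtag 2.

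Adpgk had no peak in the middle bins. It was at 609 ± 47.1, 645 ± 58.3 and 605 ± 120 CPM in the 3 bins of 1% and over, then 375 ± 41.1, 125 ± 19.8 and 58 ± 48 in the bins below. The edge of the class rule lies where its lower levels start. Next to that edge, marrow cells with 0.5 to 1% held Adpgk at 442 CPM and those with 1 to 2% at 510. The same cells held Mmp8 at 3241 and 2967, Mmp9 at 1931 and 1700, Retnlg at 38717 and 29964, Timp2 at 258 and 228, and Scrg1 at 502 and 471 CPM. Free RNA limits the lowest bins, since T or NK cells of the marrow library had a median Camp, Ngp and Ltf share of 0.0244%.

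**Figure D2:**
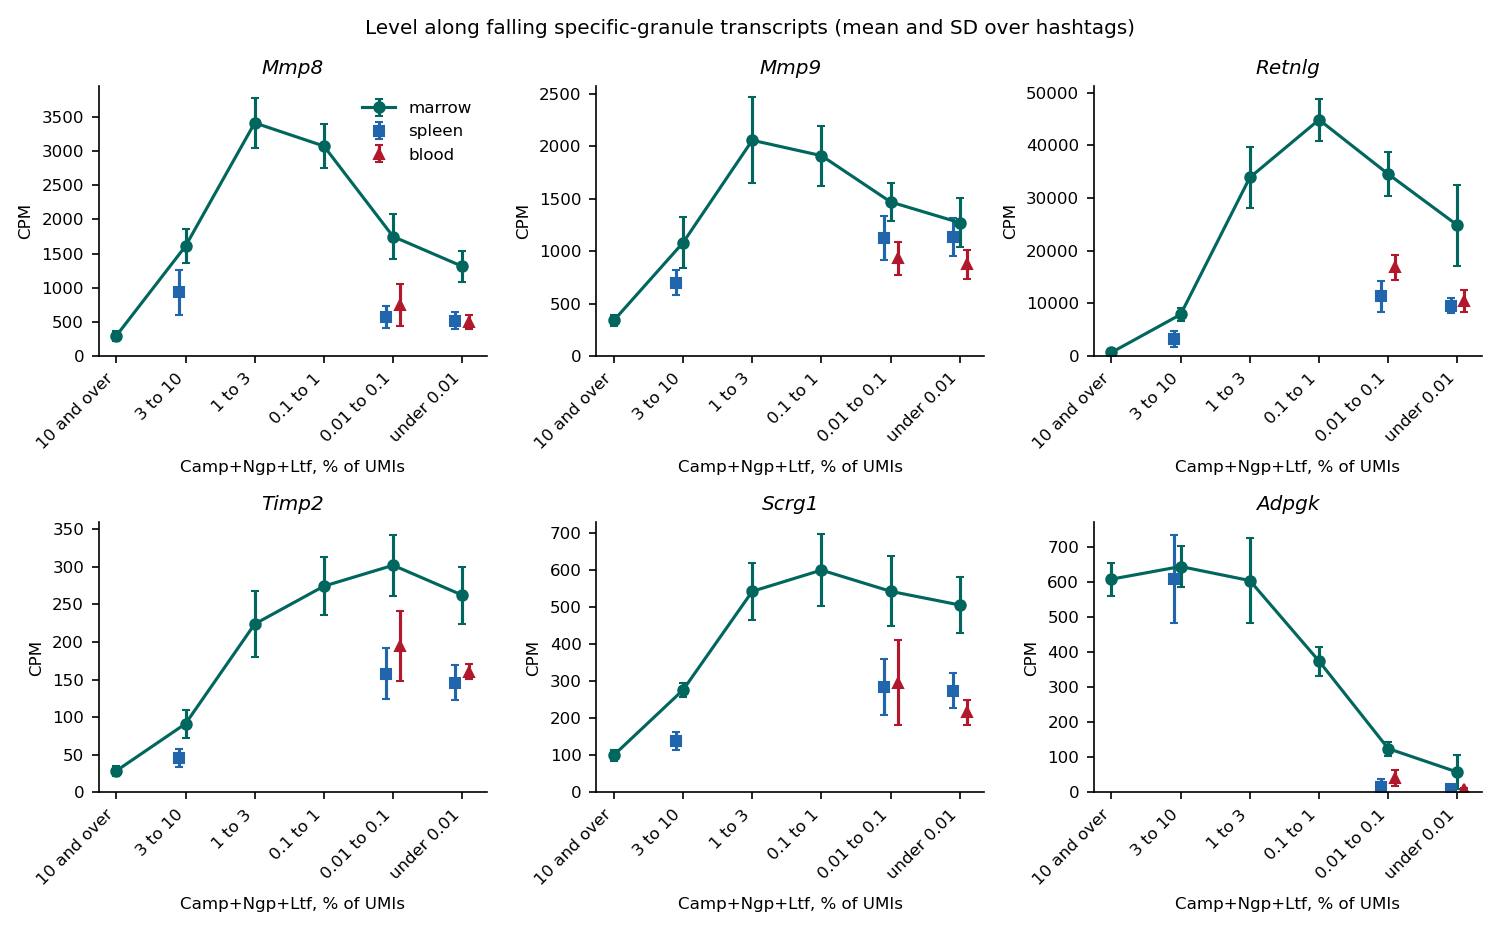
Mean CPM with SD over hashtags of each gene in neutrophils grouped by the Camp, Ngp and Ltf share of their UMIs, highest share at left; bins with no hashtag of at least 20 cells are left out. In marrow, Mmp8 and Mmp9 have their highest means in the 1 to 3% bin, each above the 0.1 to 1% bin by less than its SD. Retnlg has its highest mean in the 0.1 to 1% bin, while Adpgk is at 605 CPM in the 1 to 3% bin and 58 in the last.

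Immature neutrophils of the spleen, outside the marrow, held less of 4 of the 6 genes than those of marrow (5 sums against 8). In this comparison 0.359% of all genes were called lower and 0.980% higher. Retnlg was 2.79-fold lower, with 2183, 3143, 2753, 2940 and 2951 CPM in spleen hashtags 1, 3, 4, 5 and 7, all below the lowest marrow sum of 6196 (log2 -1.48 ± 0.14, edgeR adjusted p = 3.53e-10). Scrg1, at 105 to 149 CPM, was 1.88-fold lower (edgeR adjusted p = 1.74e-05). Timp2, at 37.7 to 52.1 CPM, was 1.86-fold lower (edgeR adjusted p = 0.000863), and neither gene overlapped its marrow range.

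Mmp8 was 1.81-fold lower (edgeR adjusted p = 0.00432), with 664, 853, 1055, 375 and 666 CPM in the same spleen hashtags, and hashtag 4 reached into the marrow range. Mmp9 was at 522 to 680 CPM, below all marrow sums, but the difference of -0.62 ± 0.18 was not called (edgeR adjusted p = 0.0661). It was called in 11 of 19 alternatives (0.00219 to 0.266), among them the hashtag number as a block (-0.68, edgeR adjusted p = 0.00855) and the fits without hashtag 2 or 4 (0.0484 and 0.0168). Adpgk was at 510 to 685 CPM in spleen and 530 to 684 in marrow. Its log2 difference of -0.10 ± 0.14 was not called (edgeR adjusted p = 0.846). The 5 spleen sums held 25 to 44 cells each and 117 Timp2 UMIs in all. With cells thinned to 1000 UMIs, Retnlg alone stayed called, at log2 -1.18 to -1.73 over all alternatives. The immature classes are not made up alike: the 1 to 3% bin held 21 of 244 spleen and 343 of 2072 marrow cells. Within the 3 to 10% bin, Retnlg was at 3180 ± 1546 CPM (SD, n = 3) in spleen and 7872 ± 1237 (n = 8) in marrow. There Mmp8 was at 931 and 1609, Mmp9 at 698 and 1081, Timp2 at 45.7 and 91.4, and Scrg1 at 138 and 277 CPM. The part of the stage mix was not tested.

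In spleen, the step from immature to mature had the same direction as in marrow for 5 genes and the opposite one for Mmp8. Across all genes, 33.8% were called higher and 29.0% lower in mature cells (8 sums against 5). Retnlg rose 3.6-fold, Timp2 3.37-fold, Scrg1 2.18-fold and Mmp9 1.94-fold (edgeR adjusted p of 8.94e-16, 4.62e-13, 2.12e-10 and 8.1e-06), and none of these overlapped. Adpgk, at 510 CPM or more in every immature sum and 27.3 or less in every mature one, was 42-fold lower (edgeR adjusted p = 2.32e-30). These too are shares of UMIs, and median UMIs per cell were 2931 in mature and 14906.5 in immature spleen cells. Retnlg had 93766 UMIs in 3010 mature and 7580 in 165 immature spleen cells. In UMIs per cell it was thus lower in mature cells, as were Timp2, Scrg1 and Mmp9.

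Mmp8 was at 550 ± 135 CPM (SD, n = 8) in mature and 722 ± 252 (n = 5) in immature spleen cells, and the groups overlapped. Its log2 difference of -0.39 ± 0.17 was called by a narrow margin (edgeR adjusted p = 0.0463). The call was lost in 9 of 19 alternatives, among them without hashtag 4, at log2 -0.23 (edgeR adjusted p = 0.293; 4.06e-07 to 0.773 over all alternatives). It was also lost without hashtag 3, 6, 7 or 8 (edgeR adjusted p of 0.129, 0.0996, 0.0955 and 0.0578). The difference between the 2 stage steps was tested as an interaction, in which 9.83% of genes were called higher in spleen and 6.55% lower. It was called for Mmp8 (-1.24 ± 0.23, edgeR adjusted p = 7.8e-05) and for Adpgk (-3.99 ± 0.21, edgeR adjusted p = 7.63e-20). For Mmp9, Timp2 and Scrg1 it was 0.05 ± 0.23, -0.05 ± 0.21 and -0.14 ± 0.16 and was not called (edgeR adjusted p of 0.94, 0.918 and 0.621). For Retnlg it was -0.46 ± 0.18 and was not called (edgeR adjusted p = 0.067). It was called in 7 of 19 alternatives (0.000851 to 0.627), among them the hashtag number as a block (-0.49, edgeR adjusted p = 0.0316) and the fit without hashtag 1 (0.0461).

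The spleen library held few cells between the stages: 21 with a Camp, Ngp and Ltf share of 0.1 to 1%, against 792 in marrow. So the mature classes are not made up alike, and the marrow one holds the 792 cells of the 0.1 to 1% bin, where Retnlg had its highest mean. That bin also held Mmp8 at 3075 and Adpgk at 375 CPM, against 1312 and 58 in the last marrow bin. The part of these cells in the interactions, those called for Mmp8 and Adpgk included, was not tested.

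All 6 genes were higher in mature neutrophils of marrow than of blood (8 sums each), where 16.6% of genes were called higher and 27.4% lower. Adpgk differed most, at 216 to 292 CPM in marrow and 6.46 to 17.1 in blood, a 21.6-fold difference (log2 4.43 ± 0.15, edgeR adjusted p = 5.89e-28). Mmp8 was 4.52-fold higher, with 1935 to 3020 CPM against 368 to 691 (log2 2.18 ± 0.16, edgeR adjusted p = 3.52e-16). Retnlg was 3.56-fold higher, with 34338 to 44380 against 8414 to 14061 CPM (edgeR adjusted p = 2.22e-17). For Scrg1 the fold was 2.6 (edgeR adjusted p = 1.94e-15), for Mmp9 1.91 (1.23e-06) and for Timp2 1.76 (3.54e-08). None of these 6 genes overlapped between the tissues, and the share of all genes without overlap was not counted.

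The collagenase thus differed more than the gelatinase. Mmp9 UMIs per 100 Mmp8 UMIs were 51.6 to 97.6 in the marrow sums and 113 to 276 in the blood sums, which did not overlap. In spleen the ratio was 136 to 336, and in marrow immature cells 57.8 to 90.8. Within the bin of under 0.01% Camp, Ngp and Ltf, the mean levels of Mmp8 were 1312 CPM in marrow, 514 in spleen and 504 in blood, and those of Mmp9 were 1271, 1133 and 875. In the same order Adpgk was at 58, 8.96 and 8.92 CPM and Retnlg at 24805, 9483 and 10429. Timp2 was at 262, 146 and 161, and Scrg1 at 506, 274 and 216. For every gene, Mmp8 included, the differences of marrow from blood and from spleen are smaller in this bin than in the full classes. The part of the stage mix was not tested. The marrow bin rests on 3 hashtags, and at its median depth of 2725 UMIs per cell a share under 0.01% means 0 UMIs, so the shares are not shown to be alike. The median share in mature cells was 0.0853% in marrow and 0 in blood, so marrow cells sit closer to the immature edge in the full class.

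Mature spleen neutrophils were close to those of blood. Scrg1 was the 1 member called there, while 5.82% of genes were called higher and 4.15% lower. It was at 278 ± 50.5 CPM in spleen and 220 ± 34.7 in blood (SD, n = 8 each), with overlap (log2 0.33 ± 0.10, edgeR adjusted p = 0.0256). This call was lost in 8 of 19 alternatives: TMM and DESeq2 scaling, no filter, library sizes without the class genes, thinning, and without hashtag 1, 2 or 4 (edgeR adjusted p of 0.0834, 0.0627 and 0.0667 without them; 0.00949 to 0.24 over all alternatives). Mmp9 was higher in spleen in each of the 8 hashtags, at 1129 ± 190 against 878 ± 135 CPM. Its log2 difference of 0.36 ± 0.15 was not called in the unpaired fit (edgeR adjusted p = 0.113) and was called with the hashtag number as a block (0.36, edgeR adjusted p = 0.0449). Mmp8, Retnlg, Timp2 and Adpgk differed by log2 0.09 ± 0.15, -0.11 ± 0.12, -0.13 ± 0.11 and 0.34 ± 0.19 (edgeR adjusted p of 0.797, 0.635, 0.521 and 0.271).

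Against marrow, the spleen levels of all 6 genes were lower, as 11.4% of genes were and against 28.3% that were higher. Adpgk was 17-fold lower, Mmp8 4.26-fold, Retnlg 3.84-fold, Scrg1 2.07-fold, Timp2 1.93-fold and Mmp9 1.49-fold. Mmp9 overlapped, because spleen hashtag 5, at 1555 CPM, lay inside the marrow range (edgeR adjusted p = 0.00169). The comparisons with blood, spleen and marrow share the same sums and are not independent of each other.

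**Figure D3:**
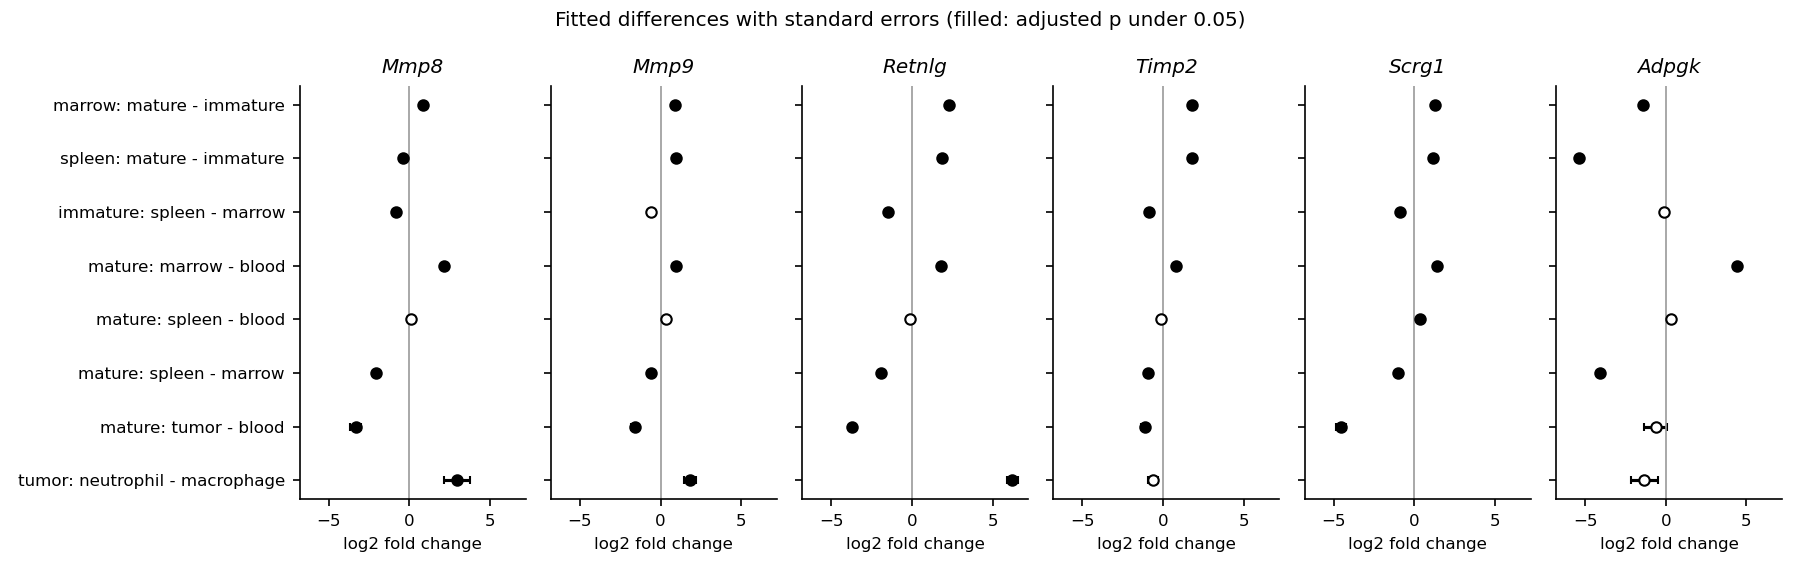
Fitted log2 fold change of each gene in the 8 comparisons, with bars of 1 standard error; filled points have an adjusted p under 0.05, and Scrg1 in tumor neutrophils against macrophages is left out because macrophages had 0 UMIs. In mature cells, the differences between marrow and blood and between spleen and marrow exceed those between spleen and blood for all 6 genes.

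Mature neutrophils of different hashtags differed within a tissue, and for Mmp8, Mmp9 and Retnlg these differences recurred between blood and spleen. Between blood and spleen, Mmp9 had Pearson's r = 0.996 and Spearman's rho = 0.905 over 8 hashtag numbers (exact permutation p = 0.000372 and 0.00456, two-sided; adjusted over 18 relations 0.00357 and 0.0205). Mmp8 had r = 0.954 and rho = 0.952 (exact permutation p = 0.000397 and 0.00114; adjusted 0.00357 and 0.0201). Retnlg had r = 0.92 and rho = 0.929 (exact permutation p = 0.000967 and 0.00223; adjusted 0.0058 and 0.0201). Without the 2 hashtags farthest from the blood median, r was 0.98, 0.894 and 0.878. Such recurrence was not particular to these genes. Over the more highly expressed genes together, the deviations of same-numbered blood and spleen sums had a median correlation of 0.502, against -0.202 for different numbers.

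Hashtag 5 had the highest Mmp9 level in blood, spleen and marrow, at 1184, 1555 and 2098 CPM, where the other 7 lay at 778 to 913, 976 to 1199 and 1540 to 1770. The same hashtag was low in Mmp8, at 430, 463 and 2150 CPM. Hashtag 2 had the highest Mmp8 level in all 3 tissues, at 691, 739 and 3020 CPM, and hashtag 7 the lowest, at 368, 334 and 1935. So the 2 proteases did not order the hashtags alike.

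With marrow the relations were weaker in part. Blood and marrow gave r = 0.838 for Mmp8, 0.922 for Mmp9 and 0.885 for Retnlg (exact permutation p = 0.0061, 0.0102 and 0.0118; adjusted 0.0275, 0.0304 and 0.0304). Their rho was 0.786, 0.667 and 0.905 (exact permutation p = 0.0279, 0.0831 and 0.00456; adjusted 0.0718, 0.166 and 0.0205). Without 2 hashtags r was 0.493 for Mmp8, so that relation rests on those hashtags, and 0.98 and 0.918 for the others. Marrow and spleen gave r = 0.725 for Mmp8, 0.93 for Mmp9 and 0.778 for Retnlg (exact permutation p = 0.0352, 0.00871 and 0.0332; adjusted 0.0689, 0.0304 and 0.0689), with rho of 0.619, 0.857 and 0.81 (adjusted 0.207, 0.0386 and 0.0653). Without 2 hashtags r was 0.12, 0.281 and 0.814, so the Mmp9 relation rests on those hashtags. Timp2 and Adpgk gave no relation that passed adjustment in any of 3 tissue pairs, and neither did Scrg1, whose blood and spleen r was 0.728 (exact permutation p = 0.0383; adjusted 0.0689). Each tissue is its own library, so the shared number and not a shared library links these values. No source says that a number marks the same mouse in every tissue, nor which genotype it carries.

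**Figure D4:**
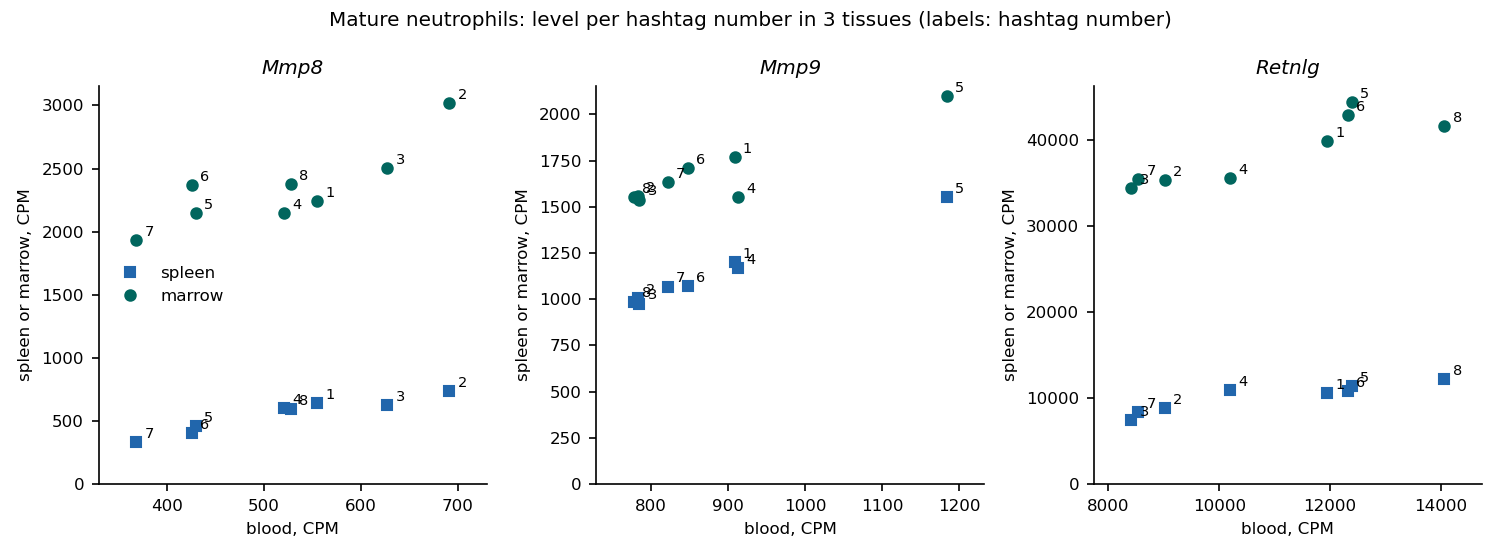
CPM of Mmp8, Mmp9 and Retnlg in mature neutrophils, blood on the x axis and spleen (squares) or marrow (circles) on the y axis; each point is 1 hashtag number, written beside it. The 8 numbers keep nearly the same order in blood and spleen, and hashtag 5 stands highest for Mmp9 in all 3 tissues.

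As a share of UMIs, 5 of the 6 genes were lower in tumor than in blood neutrophils (4 sums against 8), where 20.9% of genes were called higher and 15.7% lower. Median UMIs per cell were 6341 in tumor and 3058.5 in mature blood neutrophils. Mmp9 had 136 UMIs in 48 tumor and 15712 in 5581 blood cells, and Timp2 32 and 2900. These 2 were thus not lower in UMIs per cell, while Mmp8, Retnlg and Scrg1 were lower by both measures. Retnlg was at 608, 780, 995 and 939 CPM in tumor hashtags 2, 3, 4 and 6, which is 13.3-fold below blood (log2 -3.73 ± 0.19, edgeR adjusted p = 3.57e-22). Mmp8 was at 95.4, 45.9, 31.1 and 36.1 CPM, 9.98-fold below blood (log2 -3.32 ± 0.33, edgeR adjusted p = 7.85e-12). Mmp9 was at 191, 402, 124 and 332 CPM, 2.98-fold below (log2 -1.58 ± 0.23, edgeR adjusted p = 2.45e-07). No tumor sum of these genes reached the lowest blood sum.

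Scrg1 had 4 UMIs in the tumor sums and lay at 0.042 of its blood level (95% exact counting interval 0.0114 to 0.108; edgeR adjusted p = 1.37e-15). Timp2, at 59.6 to 93.3 CPM, was 2.17-fold below blood (edgeR adjusted p = 0.000174). Adpgk had 3 UMIs in the tumor sums and a ratio of 0.64 to blood (counting interval 0.131 to 1.9), and it was not called (edgeR adjusted p = 0.556). Mmp9 UMIs per 100 Mmp8 UMIs were 200 to 920 in the tumor sums, on 22 Mmp8 UMIs in all.

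These values rest on 48 cells, 5 to 19 per sum. With the stricter hashtag margin the calls of Mmp9 (log2 -0.61, edgeR adjusted p = 0.0787) and Timp2 (-0.58, 0.533) were lost. The same 2 were lost without cells that carry monocyte markers (Mmp9 -0.67, edgeR adjusted p = 0.18, and Timp2 -0.79, 0.175). With the S100 limit of 3% used in the other tissues, Timp2 was at -0.51 (edgeR adjusted p = 0.374). Over all alternatives the adjusted p of Mmp9 ran from 2.53e-13 to 0.18 and that of Timp2 from 9.53e-06 to 0.533. Mmp8, Retnlg and Scrg1 were called in all 22 alternatives run. Over all 127 tumor neutrophils, Mmp8 was at 77.8 CPM, Mmp9 at 374, Retnlg at 673, Timp2 at 99.6, Scrg1 at 7.99 and Adpgk at 7.27.

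Compared with tumor macrophages, tumor neutrophils were higher in Retnlg, Mmp9 and Mmp8 (4 sums each), while 7.19% of genes were called higher and 11.0% lower. Retnlg had 349 UMIs in the neutrophil and 5 in the macrophage sums, a ratio of 73.4 (95% exact counting interval 31.1 to 227; edgeR adjusted p = 2.7e-18). Mmp8 had 22 and 3 UMIs, a ratio of 7.71 (counting interval 2.32 to 40.2; edgeR adjusted p = 0.00729). Its call was lost without hashtag 3 (edgeR adjusted p = 0.0551) and in 5 other alternatives (0.00183 to 0.708 over all). Mmp9 was at 22.5, 101, 240 and 8.54 CPM in macrophage hashtags 2, 3, 4 and 7 and overlapped with the neutrophils (log2 1.82 ± 0.35, edgeR adjusted p = 0.000115; 5.88e-08 to 0.358 over all alternatives). It was not called with only these 2 groups in the fit (edgeR adjusted p = 0.0763). Without cells that carry monocyte markers, Retnlg, Mmp9 and Mmp8 were at log2 7.06, 2.75 and 3.36 and stayed called. Over all 90 macrophages, whatever their hashtags, Retnlg was at 80.9, Mmp9 at 123 and Mmp8 at 23.8 CPM, against 673, 374 and 77.8 in all 127 tumor neutrophils. For Retnlg and Mmp8 this is a smaller difference than between the sums.

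Timp2 was at 124, 123, 225 and 34.1 CPM in the macrophage sums and 59.6 to 93.3 in the neutrophil sums. The difference of -0.65 ± 0.31 was not called (edgeR adjusted p = 0.158); without hashtag 7 it was -0.98 and was called (0.0329). Scrg1 had 4 UMIs in the neutrophil and 0 in the macrophage sums, and Adpgk 3 and 8. In the 24 macrophage cells a count of 0 does not show absence, and 3 Scrg1 UMIs were found among all 90. The 53 cells that met both tumor rules had a median of 28267 UMIs and a single hashtag in 20.8%, and held Mmp9 at 298, Retnlg at 375 and Mmp8 at 69.1 CPM. Counted as macrophages, they ended the Mmp8 call (log2 0.88, edgeR adjusted p = 0.303).

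Other cells of the sort showed how far each gene was restricted to neutrophils. Monocytes, cells with at least 2 UMIs of Csf1r, Ccr2, Ly6c2, F13a1 and Ms4a6c, held Mmp8 at 160 ± 39.8 CPM (SD) in blood, at 111 ± 18.6 in marrow and at 132 ± 46.8 in the spleen, over 8 hashtags each. Of these cells 55.8%, 61.2% and 52.3% had an Mmp8 UMI, at median depths of 9798, 11122 and 10650 UMIs. T or NK cells of the same libraries had one in 12.9%, 15.5% and 6.29%, at 8094, 18029 and 9461 UMIs. Thinned to 1000 UMIs per cell, the shares were 13.6%, 13.3% and 11.3% in monocytes and 1.61%, 0.515% and 1.41% in T or NK cells. Mmp8 was thus higher in monocytes than in T or NK cells of each library, also at equal depth.

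Retnlg did not separate these classes alike. Over all cells it was at 182, 108 and 128 CPM in monocytes of blood, marrow and spleen and at 84.9, 144 and 71.2 in T or NK cells, so it was higher in monocytes in blood and spleen and lower in marrow. Over single-hashtag sums the monocytes were at 94 ± 37.9, 99.5 ± 18.7 and 74.1 ± 48.9 CPM (SD, n = 8 each). The part of free RNA in these values was not tested. Mmp8 UMIs per 100 Retnlg UMIs were 68.3 to 166 in marrow monocytes, 4.84 to 8.54 in mature marrow neutrophils, and 2.27 to 14.3 in marrow T or NK and erythroid cells. In blood monocytes the ratio was 105 to 438, against 3.46 to 7.66 in mature neutrophils. The ratio was also high in some sums of other classes, with 50 and 400 in 2 sums of blood dendritic cells and up to 260 in spleen B or plasma cells.

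Mmp9 was low in monocytes, at 29.1 ± 17, 8.55 ± 4.94 and 35.3 ± 23.8 CPM in blood, marrow and spleen. In marrow this was close to T or NK cells (8.52 CPM over 3 hashtags) and erythroid cells (6.13 over 4). The monocyte class itself summed to 4794 CPM of its 5 markers in blood. Scrg1 was at 8.58 CPM in blood, 3.18 in marrow and 7.59 in spleen monocytes over all cells. Timp2 had another distribution in the tumor, where the 87 cells outside all classes held it at 381 CPM (95% exact counting interval 330 to 438) and tumor neutrophils at 99.6.

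**Figure D5:**
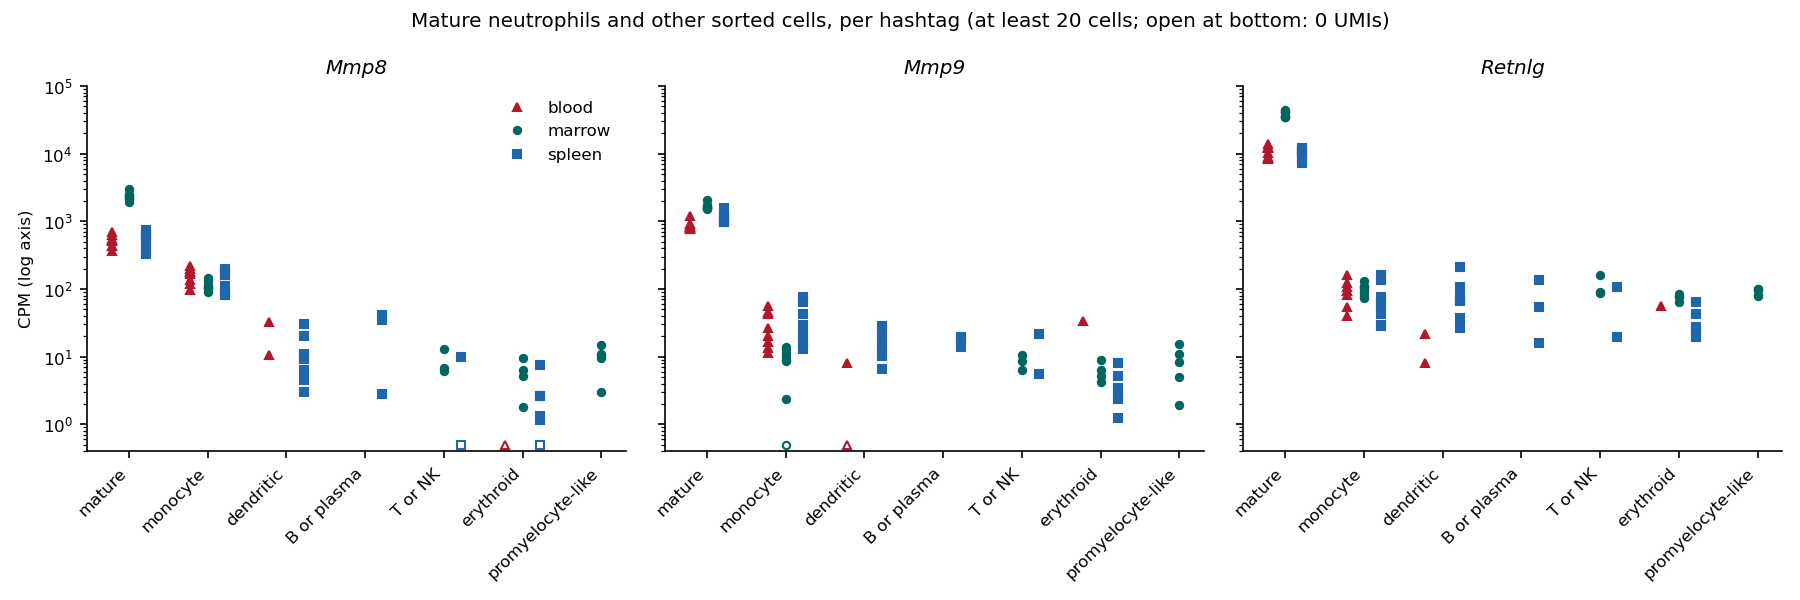
CPM (log axis) of Mmp8, Mmp9 and Retnlg per hashtag in mature neutrophils and the other sorted classes of blood, marrow and spleen, for sums of at least 20 cells; open symbols at the bottom are 0 UMIs. Mmp8 lies between 80.3 and 215 CPM in monocytes, above the other non-neutrophil classes, whose highest sum is 41.8; Retnlg in monocytes lies between 28.6 and 161.

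Genes of the same pathways were read from fixed lists. Of 21 matrix metalloproteinase genes 7 passed the filter on counts. In marrow, 3 of these 7 rose with maturation (Mmp8, Mmp9 and Mmp27) and 0 fell, beside 29.9% and 26.6% of all genes. Mmp8 and Mmp9 are members already described, and the list median of log2 0.91 (0.00 over all genes) is the value of Mmp9 itself. The 7 genes are too few to set against those shares. Mmp25, a membrane-bound leukocyte metalloproteinase, was at 142 CPM in mature and 134 in immature marrow cells and was not called (edgeR adjusted p = 0.692). In tumor against blood, Mmp8 and Mmp9 fell and 3 others rose, beside 15.7% and 20.9% of all genes: Mmp19 (log2 6.66 ± 0.56), Mmp12, the macrophage elastase gene, and Mmp14, a membrane-type metalloproteinase gene. Mmp12 and Mmp14 were at 20.9 and 103 CPM in tumor neutrophils and had no UMI in the blood sums. Both were lower in tumor neutrophils than in macrophages (log2 -3.48 ± 1.05 and -1.92 ± 0.50; edgeR adjusted p of 0.0184 and 0.00541). Timp1, another inhibitor gene, was at 252 CPM in tumor neutrophils, 189 in macrophages and 0.0821 in blood neutrophils. So the tumor cells differed from blood in both directions within the protease and inhibitor families. Monocyte markers were at 404 to 2313 CPM per hashtag in tumor and 225 to 484 in blood neutrophils.

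Of the resistin family, 3 of 4 genes were tested, and 3 of 3 rose from immature to mature in marrow, where 29.9% of all genes did: Retnlg, Retn (log2 3.62 ± 0.20, from 2.52 to 32.7 CPM) and Retnlb (2.88 ± 0.53). Retnlg is a member already described, and 3 genes are too few to set against that share. Retn, the resistin gene, did not share the blood pattern of Retnlg. It was higher in blood, at 91.5 CPM, than in mature marrow cells (log2 -1.43 ± 0.14 for marrow against blood, edgeR adjusted p = 1.06e-11). Both fell in the tumor, Retn by 2.50 ± 0.38 on the log2 scale.

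Of 20 gelatinase granule and membrane genes, all tested, 9 rose and 5 fell in marrow maturation, with a median log2 of 0.26; of all genes 29.9% rose and 26.6% fell, and the share of the list that fell is close to that. The chemoattractant receptor gene Fpr1 (1.89 ± 0.14) and the SNARE gene Snap23 (2.49 ± 0.12) rose, and the oxidase subunit gene Cybb (-2.29 ± 0.23) fell. Of 12 specific granule genes outside the class rule, Mmp8 among them, 2 rose and 7 fell, beside the same 29.9% and 26.6% of all genes, with a median of -1.03. Cd177, Lyz2, Hp, Cybb and Itgam are on both granule lists, so the counts of the lists share genes. Lcn2, which encodes the siderophore-binding lipocalin, fell by 1.83 ± 0.17. Mmp8 protein is known as a specific granule content, while its RNA moved here with Mmp9 and against Lcn2. Of 9 genes of glucose phosphorylation and the next steps, 7 were tested, and 1 rose and 3 fell, too few to set against those shares. Adpgk and the hexokinase gene Hk2 (-1.16 ± 0.20) fell and Hk3 (0.40 ± 0.10) rose. In blood, Hk2 was higher than in mature marrow cells (marrow against blood -1.16 ± 0.20, edgeR adjusted p = 5.8e-06), the direction opposite to Adpgk.

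Over the 45 sums of all groups, the genes most like each member were named from 6830 genes by Pearson's r of log2(CPM + 1), as a description. The sums share libraries, depth and hashtags. Mmp8 was nearest to Chil1 (0.94), Scrg1 (0.94), Msra, Nfe2 and Cnn2 (0.91 each), and Retnlg to the haptoglobin gene Hp (0.97), B430306N03Rik and Mgam (0.96 each), Pygl and Mrgpra2b (0.95 each). Mmp9 was nearest to Alox5, which encodes the enzyme that starts leukotriene synthesis, F630028O10Rik and Mcemp1 (0.94 each), and to Fgd4 and Msra (0.92 each). Scrg1 was nearest to Bmx (0.97), Palm and Fgd4 (0.95 each), Abtb1 and Prkcb (0.94 each). Timp2 had lower values, from S100a6 (0.88) to Glipr1 (0.81), with Arpc2, Fcho2 and Rhoc between. Adpgk was nearest to the granule membrane gene Cd177 (0.93), followed by F730016J06Rik, Ngp and 4930438A08Rik (0.92 each) and Zdhhc3 (0.91). Among the members, Mmp8, Mmp9, Retnlg and Scrg1 had r of 0.85 to 0.94 with each other, and Timp2 and Adpgk had -0.16.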

How the data were processed

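Single-cell RNA and antibody tags of 4 tissues were read from 1 matrix of raw counts that the authors deposited; per the submitters' processing notes Cell Ranger 7.0.1 and mm10 were used, and the file holds no normalization by the authors. The number at the end of each barcode was matched to the library of that number in the labels, which no source states outright. A hashtag was assigned at 20 or more counts and at least 3 times the next. Cells with a single hashtag were pooled by tissue, class and hashtag, and a sum needed 20 or more cells, or 5 in the tumor; no doublet caller was run, so doublets within a mouse remain. Genes that reached 100 UMIs over all sums entered edgeR 4.0.16 (limma 3.58.1, R 4.3.3) in 1 fit over 45 sums of 7 groups whose library sizes were the total UMIs, with p-values adjusted by Benjamini-Hochberg, after a test of the script on simulated data. P-values measure the spread between hashtags only, and with 1 library per tissue, a tissue cannot be told apart from its library. Intervals are exact at 95% and, with the floor of 3 counts, cover counting error only. The members, lists and classes were chosen with earlier results of these data known. Named are the members, the 5 genes most like each, and members of the fixed lists, picked for printing after their values were seen. Same-numbered sums deviated together in every pair (correlation over 0.1) for the marrow stages (0.14 or more) and for mature cells of marrow and blood (0.177 or more) and of spleen and blood (0.178 or more), not in the other comparisons. Alternatives were TMM factors, DESeq2 1.42.0, no filter, a replicate block, thinning to 1000 UMIs, a hashtag margin of 6, stricter classes, other library sizes, removal of cells with monocyte markers, only the groups compared, and each hashtag left out. Others were added after the data were seen: immature spleen sums of at least 10 cells, the cells of both tumor rules put in either class, a tumor S100 limit of 3%, and removal of cells under 1000 UMIs or with 5% or more mitochondrial UMIs.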

Additional observations from a re-analysis of the deposited data

Results flagged for a closer look

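In 5 of the 41 pairs of gene and group that were examined, 1 hashtag lay apart from the others of its group by Dixon's test, where chance sets apart about 1 pair in 20. Mmp9 in hashtag 5 was the highest value in 3 tissues, at 2098 CPM in mature marrow, 1184 in mature blood and 1555 in mature spleen neutrophils. These 3 values carry the same number and are not independent, and the genotype of that hashtag is not given. Adpgk in the immature marrow neutrophils of hashtag 5 was the lowest of its group, at 530 CPM. Adpgk in the tumor macrophages of hashtag 4 was the highest, at 60.04 CPM, on 8 UMIs over the whole group.

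The step from immature to mature differed between spleen and marrow for 2 genes by the interaction term. For Mmp8 the difference was -1.24 on the log2 scale and for Adpgk -3.99, and both were called in all 19 alternatives run. The mature classes of spleen and marrow are not made up alike, and the part of that in these differences was not tested.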

How the results depend on the processing

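Of 1058 member values under the alternatives, 981 kept their direction and their side of the threshold, 39 lost the call, 26 gained one and 12 changed sign. Without cells with monocyte markers, 3 members were called between marrow stages and 3 between tumor and blood, Mmp8 was at -0.33 in marrow and Adpgk at -0.037 in spleen against blood. That setting left 1 immature marrow sum and no spleen one, since immature neutrophils carry Ly6c2. Between spleen and blood, 0 members were called with TMM, DESeq2, no filter or library sizes without the class genes (Mmp8 -0.029 with TMM and -0.012 with DESeq2) and 0 to 1 with a hashtag left out. There 2 were called with the replicate block, only the groups compared, the stricter margin or stricter classes. With thinning 1 was called in immature spleen against marrow. In tumor neutrophils against macrophages 1 was called with thinning or only the groups compared, and Timp2 was at 0.18 with the S100 limit of 3%. With the stricter margin 3 were called in tumor against blood and Adpgk was at 0.13. The stage difference of Mmp9 was -0.16 with DESeq2, -0.15 without the class genes and -0.040 to 0.12 with a hashtag left out. That of Timp2 was 0.051 with smaller spleen sums and -0.17 to 0.11 with a hashtag left out. The cause was not tested. The replicate block changed further calls only for Mmp9 in immature spleen against marrow and Retnlg in the stage difference (adjusted p of 0.00855 and 0.0316).

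Counts over all genes also moved. Thinning gave 2002 higher and 979 lower calls for marrow stages (main 3082 and 2735), 1520 and 699 for spleen stages (3486 and 2986), 8 and 3 for immature cells (101 and 37), 545 and 1565 for marrow against blood (1705 and 2823), 1736 and 459 for spleen against marrow (2914 and 1178), 440 and 381 for tumor against blood (2148 and 1621), 114 and 119 for tumor classes (741 and 1134) and 97 and 106 for the stage difference (1013 and 675). Without monocyte-marker cells these were 723 and 247, 482 and 1379, 1659 and 410, and 668 and 901 for marrow stages, marrow against blood, spleen against marrow and tumor against blood. Immature cells gave 139 and 87 with DESeq2, 158 and 50 with the block, 45 and 34 with only their groups, and 15 and 26 without hashtag 3. Spleen against blood gave 1053 and 573 with only its groups (600 and 427). Tumor against blood gave 600 and 641 with the stricter margin and 839 and 1024 at 3%. Tumor classes gave 272 and 214 with only their groups, 581 and 602 without hashtag 6 and 535 and 659 with the stricter margin. DESeq2 moved the share of higher calls from 53% to 41.8% for marrow stages, 53.9% to 38.3% for spleen stages, 73.2% to 61.5% for immature cells, 37.7% to 55.8% for marrow against blood, 58.4% to 40.2% for spleen against blood, 71.2% to 43.8% for spleen against marrow, 39.5% to 55.7% for tumor classes and 60% to 31.8% for the stage difference. TMM moved it to 44.9%, 26.8%, 51.1% and 57.2% for immature cells, spleen against blood, spleen against marrow and tumor classes, and from 57% to 38.6% for tumor against blood. Scaling moved the median of all genes by most in spleen stages, from 0.09 to -0.41 without the class genes. Tumor macrophage sums of at least 10 cells could not be formed.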

Other observations

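In blood, 515 cells fell outside all classes, with a median of 1.46% of their UMIs from S100a8 and S100a9. They held Mmp9 at 763 CPM, Retnlg at 2117 and Mmp8 at 222 over all cells. On either side of the 3% limit in blood, cells with 2 to 3% held Mmp8 at 235 and Retnlg at 1992 CPM, and cells with 3 to 4% held them at 181 and 1992. The 5 blood cells that met the immature rule held 26 Adpgk UMIs, which is 408 to 916 CPM by a 95% exact counting interval, and mature blood neutrophils held Adpgk at 11.2 CPM over all cells.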
